A study of Mus musculus with 7 samples.

Results

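Calcium enters and leaves the endoplasmic reticulum (ER) of a fibroblast through pumps and channels, and sensors and pumps of other membranes act around this store. From these and related genes, 10 were read in RNA-seq libraries of mouse embryonic fibroblasts (MEFs) under 6 kinds of stress. The genes were taken by symbol, for their roles in calcium handling, from a list drawn up with earlier results of these data known. They are the ER pump gene Atp2a2, the plasma membrane pump genes Atp2b1 and Atp2b4, the Golgi pump gene Atp2c1, the release channel genes Itpr1, Itpr2 and Itpr3, the store sensor genes Stim1 and Stim2, and the secreted glycoprotein gene Stc2. All 10 were found, each on 1 row, among the 49382 rows of the table. All libraries came from wild-type MEFs prepared from embryos of day 13.5 to 14.4 without head and fetal liver, used at passage 3 to 7 (all by the labels, since the methods give a slightly later last day and first passage) and plated at 10000 cells per cm2. There were 7 libraries, 1 per condition. They were the untreated control, hypoxia at 0.1% oxygen and depletion of glucose or of glutamine (each 10 h), ER stress from 1 μM thapsigargin (10 h), oxidative stress from 10 μM sodium arsenite (3 h) and osmotic stress from 100 mM added NaCl (3 h). The labels give no culture time for the control, and treatments of 3 h and 10 h share it.

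The ER is the main calcium store of a fibroblast. SERCA2, the product of Atp2a2, pumps calcium from the cytosol into the ER lumen, and inositol trisphosphate (IP3) receptors, the products of the Itpr genes, let it out after receptor signaling. When the store empties, the ER membrane proteins STIM1 and STIM2 open ORAI channels of the plasma membrane, and plasma membrane pumps return cytosolic calcium to the outside. Thapsigargin blocks SERCA, so that the store drains through leak pathways and protein folding in the ER, which needs calcium, is disturbed.

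Values are in TPM (transcripts per 1000000 transcripts), a measure per transcript length that allows the levels of different genes to be set side by side. Changes are differences of log2(TPM + 1) from the control, and "rose" or "fell" is kept for changes past 2-fold by this measure. With 1 library per condition there was no spread between replicates, so no test could be made and no p-value is given. TPM holds no read count, and the depth of the libraries is unknown. In glucose depletion 0 of the 10 genes rose and 0 fell, where 1.83% and 2.41% did of the 12909 genes that averaged 2 TPM or more. In glutamine depletion 1 rose (3.21% of all genes) and 0 fell (3.21%). In hypoxia 1 rose (3.57%) and 0 fell (2.64%). In ER stress 2 rose (8.60%) and 2 fell (11.0%). In oxidative stress 0 rose (3.94%) and 0 fell (4.85%), and in osmotic stress 0 rose (3.08%) and 0 fell (8.76%). Thus 6 of the 60 changes were past 2-fold, 4 of them in the thapsigargin library. All 10 genes passed the filter on low values, and the lowest single value among them was 2.59 TPM.

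**Figure D1:**
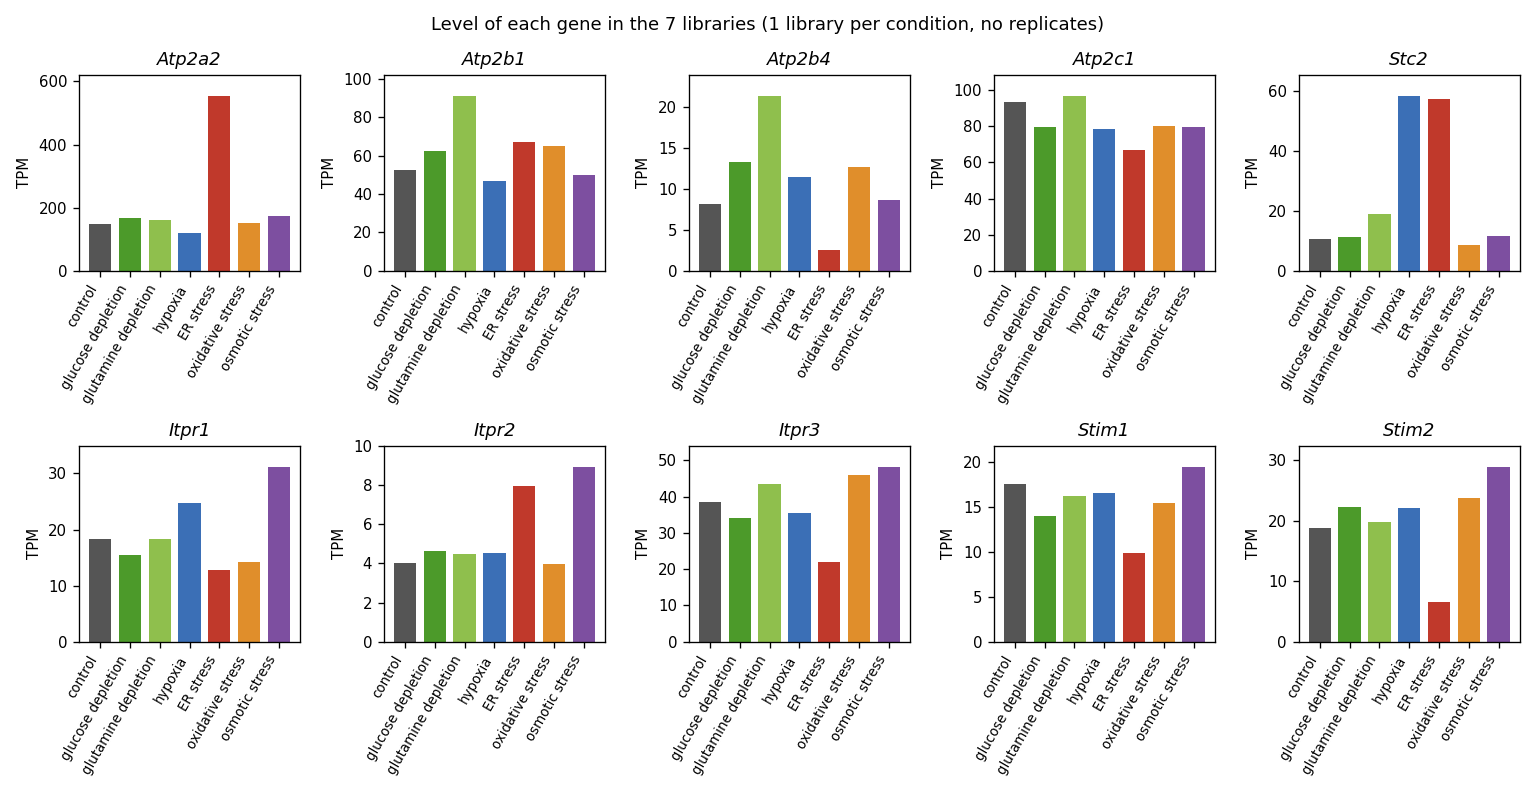
Level in TPM (vertical axis, from 0, scaled per gene) of each of the 10 genes in the 7 libraries (horizontal axis), with 1 bar per library and no replicates. Atp2a2 stands out in ER stress at 554.6 TPM, Stc2 is high in hypoxia and ER stress, and Stim2 and Atp2b4 are lowest in ER stress.

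The thapsigargin library carried the marks of its label. Hspa5, the gene of the ER chaperone BiP, was at 12611 TPM in ER stress and between 784.3 and 1689 TPM in the other 6 libraries. Ddit3, the gene of the stress factor CHOP, was at 1870 TPM against 48.9 to 208.1 TPM. The 8 fibroblast markers summed to between 6160 TPM, in ER stress, and 12781 TPM. Markers of other cells summed to 6.76 to 13.7 TPM over 5 macrophage genes, 2.94 to 7.31 TPM over 4 endothelial genes, 3.88 to 11.6 TPM over 4 epithelial genes (highest in ER stress), 0.212 to 3.13 TPM over 6 skeletal muscle genes and 3.10 to 7.38 TPM over 4 cardiac muscle genes (highest in ER stress). The 4 neural genes summed to between 46.7 and 149.1 TPM, highest in ER stress, where Tubb3 stood at 126.7 TPM and the neuronal marker Elavl3 at 0.179 TPM. Of the same list, Map2 was between 14.7 TPM (glucose depletion) and 30.0 TPM (osmotic stress), and Sox2 reached 2.14 TPM (osmotic stress). Of the listed markers, Ptprc (leukocytes) did not exceed 0.280 TPM, Adgre1 (macrophages) 0.110 TPM and Epcam (epithelium) 0.0868 TPM. Others on these lists were higher. In the macrophage list Cd68 reached 9.77 TPM (oxidative stress), Csf1r 2.25 TPM (osmotic stress) and Lyz2 2.23 TPM (glutamine depletion). The endothelial gene Kdr reached 4.23 TPM (osmotic stress) and the cardiac gene Tnnt2 7.05 TPM (ER stress). The keratin gene Krt18 went from 5.56 TPM in the control to 10.6 in ER stress and Krt8 from 0.172 to 1.00 TPM. The part of these markers in the ER stress values was not tested.

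Atp2a2, the target of thapsigargin, was the most abundant of the 10 genes in every library. It lies on chromosome 5 from 122453513 to 122502225 on the minus strand (GRCm38). Its level was 148.5 TPM in the control, 169.2 in glucose depletion, 160.3 in glutamine depletion, 121.4 in hypoxia, 554.6 in ER stress, 153.4 in oxidative stress and 173.5 TPM in osmotic stress. The 6 libraries without thapsigargin thus lay within 1.43-fold of each other, and the thapsigargin library stood 3.73-fold above the control. The log2 change in ER stress was 1.89, which ranked 347 among the 12909 genes, and those in the other conditions ran from -0.29 in hypoxia to 0.22 in osmotic stress. The other ER pump genes were near the limit of detection. Atp2a1, the skeletal muscle form, did not exceed 0.758 TPM. Atp2a3 had 0.163 TPM in the control, 2.22 TPM in ER stress and between 0.0813 and 0.493 TPM elsewhere. Of the small membrane proteins that bind the pump in muscle, Sln and Mrln were listed at 0 in all libraries and Pln did not exceed 0.293 TPM.

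The 5 genes whose levels across the 7 libraries were most like those of Atp2a2 were Gfpt1 (Pearson r 0.994), Nomo1 (0.993), Mid1ip1 (0.993), Atf6 (0.992) and Slc25a28 (0.990), of 3763 genes that averaged 10 TPM or more and had a range of at least 1 log2 unit. These r describe 7 points of which the thapsigargin library is the far one. Gfpt1 encodes the first enzyme of the hexosamine pathway, and it went from 46.6 to 113.4 TPM between the control and ER stress. Atf6, an ER membrane sensor of unfolded proteins, went from 19.5 to 91.2 TPM. Nomo1 went from 80.1 to 148.4 TPM, Mid1ip1 from 43.8 to 104.5 and Slc25a28 from 9.88 to 31.1 TPM.

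The plasma membrane pump genes went separate ways. Atp2b1 (chromosome 10 from 98914406 to 99026143, plus strand) encodes PMCA1, the widely expressed form. Its level was 52.7 TPM in the control, 62.2 in glucose depletion, 91.1 in glutamine depletion, 46.7 in hypoxia, 67.0 in ER stress, 65.1 in oxidative stress and 49.9 TPM in osmotic stress. Glutamine depletion gave its highest value, with a log2 change of 0.78, within 2-fold. Atp2b4, the gene of PMCA4 (chromosome 1 from 133699457 to 133801041, minus strand), was the member with the widest range, 8.24-fold. It stood at 8.13 TPM in the control, 13.3 in glucose depletion, 21.4 in glutamine depletion, 11.5 in hypoxia, 2.59 in ER stress, 12.7 in oxidative stress and 8.70 TPM in osmotic stress. It rose in glutamine depletion (log2 change 1.29, rank 277 from the top) and fell in ER stress (-1.35, rank 810 from the bottom), the only member past 2-fold in opposite directions. The rise was 0.84 when the median of the 7 libraries replaced the control, whose value was the second lowest. The fall was -0.79 with a pseudocount of 5 TPM. In such bulk libraries, fewer cells that express a gene and less RNA per cell cannot be told apart.

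Shares within the family do not depend on the scaling of a library. Atp2b4 supplied 13.4% of the summed TPM of Atp2b1 and Atp2b4 in the control, 19.0% in glutamine depletion, 19.7% in hypoxia and 3.73% in ER stress. Its share was 14.8% in osmotic stress, 16.3% in oxidative stress and 17.7% in glucose depletion. The low share in ER stress went with a summed level of 69.6 TPM, above the 60.8 TPM of the control, since Atp2b1 was higher there. The neuronal forms Atp2b2 and Atp2b3 did not exceed 0.131 TPM.

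Atp2c1 encodes SPCA1, which loads calcium and manganese into the Golgi. It lies on chromosome 9 from 105403539 to 105527319 on the minus strand. Its level was 93.2 TPM in the control, 79.4 in glucose depletion, 96.8 in glutamine depletion, 78.3 in hypoxia, 66.6 in ER stress, 79.9 in oxidative stress and 79.8 TPM in osmotic stress. This was the narrowest range of the 10 genes, 1.45-fold, and no change reached 0.5 log2 units. Its exons share 1837 bases with those of Aste1 on the opposite strand, which was at 3.86 to 17.7 TPM, and the sources do not say that quantification used strand. The second Golgi pump gene, Atp2c2, did not exceed 0.332 TPM. All 3 pumps other than Atp2a2 had their highest level in glutamine depletion, the library that was highest for 9.13% of all genes.

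The IP3 receptor genes differed in level and in response. Itpr3 was the main form in every library. It lies on chromosome 17 from 27057304 to 27122223 on the plus strand, and its level was 38.4 TPM in the control, 34.2 in glucose depletion, 43.5 in glutamine depletion, 35.4 in hypoxia, 21.9 in ER stress, 46.0 in oxidative stress and 48.3 TPM in osmotic stress. Itpr1 (chromosome 6 from 108213096 to 108551109, plus strand) was at 18.2 TPM in the control, 15.5 in glucose depletion, 18.3 in glutamine depletion, 24.7 in hypoxia, 12.9 in ER stress, 14.2 in oxidative stress and 31.2 TPM in osmotic stress. Itpr2 (chromosome 6 from 146108299 to 146502223, minus strand), which encodes the form with the highest affinity for IP3, was the least abundant. It was at 4.02 TPM in the control, 4.64 in glucose depletion, 4.47 in glutamine depletion, 4.50 in hypoxia, 7.92 in ER stress, 3.94 in oxidative stress and 8.93 TPM in osmotic stress.

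None of the 3 receptor genes passed 2-fold in any condition. In ER stress the log2 change was 0.83 for Itpr2, -0.47 for Itpr1 and -0.78 for Itpr3. The share of Itpr2 in the summed TPM of the 3 receptors was 18.5% there, against 6.14% to 10.1% in the other libraries, and that of Itpr3 was 51.3%, against 63.3% in the control. Oxidative stress gave Itpr3 its highest share, 71.7%, and Itpr1 its lowest, 22.1%. Hypoxia gave Itpr1 its highest share, 38.3%. The summed level of the receptors was 60.7 TPM in the control, lowest in ER stress at 42.7 TPM and highest in osmotic stress at 88.4 TPM.

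**Figure D2:**
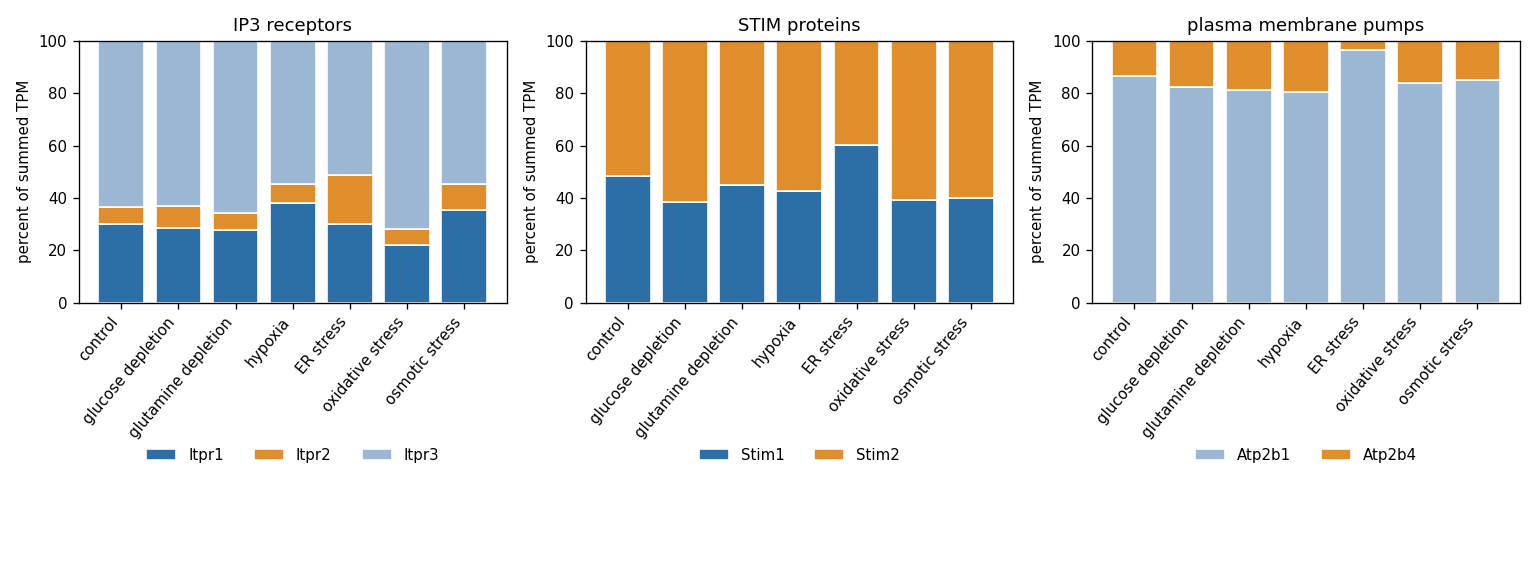
Percent of the summed TPM (vertical axis) that each gene supplies within the IP3 receptors, the STIM proteins and the plasma membrane pumps, in each of the 7 libraries (horizontal axis, 1 stacked bar per library, no replicates). In ER stress the share of Itpr2 was 18.5%, that of Stim1 60.2% and that of Atp2b4 3.73%, each outside the range of the other 6 libraries.

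Osmotic stress came closest to the 2-fold limit for the release channels. Itpr2 had a log2 change of 0.98 (rank 409 from the top), just below the limit, Itpr1 of 0.74 (rank 592) and Itpr3 of 0.32. The median change of all genes in that library was -0.12, and relative to it Itpr2 was at 1.10, past 2-fold, and Itpr1 at 0.86. With a pseudocount of 0.1 TPM the change of Itpr2 was 1.13. All 3 IP3 receptor genes and both STIM genes had their highest level in this library, which was the highest for 13.5% of all genes. The ryanodine receptor genes, the release channels of muscle and neurons, were low, with Ryr2 at most 0.463 TPM and Ryr3 at most 0.806 TPM. Ryr1 was at 2.29 TPM in osmotic stress and at most 0.126 TPM in the other libraries, and it supplied most of the 3.13 TPM of the 6 skeletal muscle markers there, with Atp2a1 at 0.611, Ckm at 0.226 and Myod1, Myog and Myh3 listed at 0. The part of such cells in these values was not tested.

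The store sensors were both lowest in the thapsigargin library. Stim2, the more sensitive sensor, which responds to small falls of ER calcium, lies on chromosome 5 from 53998499 to 54121057 on the plus strand. Its level was 18.8 TPM in the control, 22.4 in glucose depletion, 19.9 in glutamine depletion, 22.1 in hypoxia, 6.51 in ER stress, 23.8 in oxidative stress and 29.0 TPM in osmotic stress. The control was the lowest of the 6 libraries without thapsigargin, and the thapsigargin library stood at 0.347 of it, a log2 change of -1.40 (rank 734 from the bottom). Stim1, the main activator of ORAI channels (chromosome 7 from 102267806 to 102437319, plus strand), was at 17.5 TPM in the control, 14.0 in glucose depletion, 16.2 in glutamine depletion, 16.5 in hypoxia, 9.85 in ER stress, 15.4 in oxidative stress and 19.5 TPM in osmotic stress. Its change in ER stress, -0.77, was within 2-fold. Stim1 supplied 48.3% of the summed STIM level in the control, 60.2% in ER stress and between 38.4% and 45.0% in the other 5 libraries.

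The ORAI channel genes did not follow the sensors in ER stress. Between the control and ER stress, Orai1 went from 13.9 to 19.7 TPM, Orai2 from 20.6 to 36.4 and Orai3 from 18.9 to 23.1, all within 2-fold. Ratios between groups of genes were chosen after the values were seen. The summed level of the STIM genes over that of the ORAI genes was 0.206 in ER stress and between 0.679 and 0.936 in the other libraries. Saraf, whose product shuts off store-operated entry, rose in ER stress, from 100.3 to 249.2 TPM (log2 change 1.30), and was between 82.9 and 101.2 TPM elsewhere. The ratio of Atp2a2 to the summed IP3 receptors was 13.0 in ER stress, 2.45 in the control and 1.88 to 3.12 in the other libraries.

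**Figure D3:**
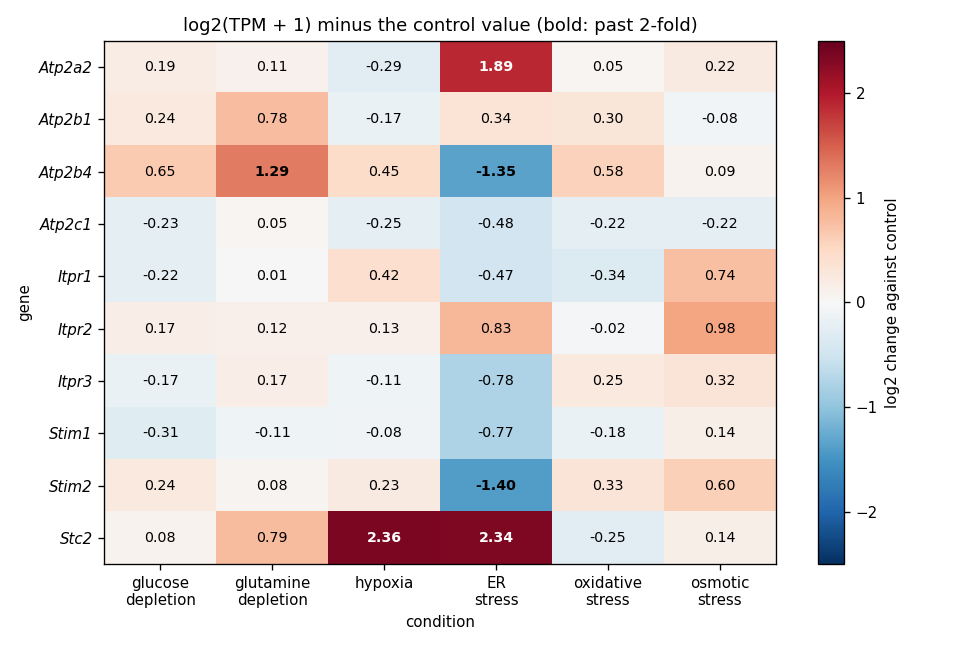
Change in log2(TPM + 1) against the control (colour and printed value) for the 10 genes (rows) in the 6 conditions (columns), each from 1 library against 1 control library, with changes past 2-fold in bold. The 6 bold values are Atp2a2, Atp2b4, Stim2 and Stc2 in ER stress, Atp2b4 in glutamine depletion and Stc2 in hypoxia.

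Stc2 encodes stanniocalcin 2, a secreted glycoprotein that is made in the ER and is known to dampen store-operated calcium entry. It lies on chromosome 11 from 31357307 to 31370074 on the minus strand. Its level was 10.5 TPM in the control, 11.2 in glucose depletion, 19.0 in glutamine depletion, 58.3 in hypoxia, 57.3 in ER stress, 8.68 in oxidative stress and 11.7 TPM in osmotic stress. The values in hypoxia and ER stress were next to each other and well above the third, that of glutamine depletion. The log2 changes of 2.36 in hypoxia (rank 185) and 2.34 in ER stress (rank 257) were the largest of the 10 genes in either condition, and Stc2 was the only member past 2-fold in hypoxia. The change in glutamine depletion was 0.79.

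Its paralog Stc1 had another pattern. Stc1 was at 3.06 TPM in the control, 3.10 in glucose depletion, 2.74 in glutamine depletion, 32.3 in hypoxia, 1.49 in ER stress, 3.76 in oxidative stress and 8.48 TPM in osmotic stress. It rose in hypoxia (log2 change 3.04) and in osmotic stress (1.22, or 0.74 with a pseudocount of 5 TPM), where Stc2 was at 0.14, and stood at -0.70 in ER stress, where Stc2 was at 2.34. The ratio of Stc2 to Stc1 was 3.45 in the control, 1.80 in hypoxia, 1.38 in osmotic stress and 38.5 in ER stress.

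**Figure D4:**
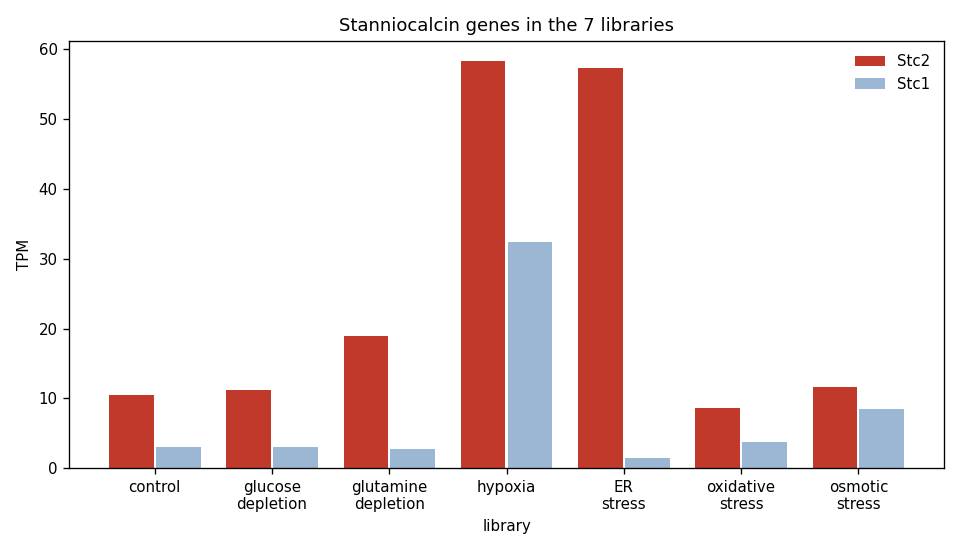
Level in TPM (vertical axis) of Stc2 and Stc1 in the 7 libraries (horizontal axis), with 1 bar per gene and library and no replicates. Both genes are high in hypoxia, at 58.3 and 32.3 TPM, while in ER stress Stc2 is at 57.3 TPM and Stc1 at 1.49 TPM.

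The genes most like Stc2 across the 7 libraries, by the same search, were Mthfd1l (r 0.986), Adm2 (0.975), Gopc (0.971), Kmt5b (0.967) and Lonp1 (0.959). Here 2 of the 7 points lie apart from the rest. Mthfd1l, a mitochondrial enzyme of the folate cycle, went from 20.4 TPM in the control to 56.6 in hypoxia and 53.3 TPM in ER stress. Adm2, a peptide hormone gene, went from 8.38 to 42.9 and 67.8 TPM, and Lonp1, a mitochondrial protease gene, from 69.8 to 155.7 and 204.2 TPM. Gopc went from 20.0 to 36.4 and 41.8 TPM, and Kmt5b from 15.8 to 29.9 and 34.0 TPM.

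Promoter windows of 250 bases before to 50 bases after a transcription start were given by RefSeq (GRCm38.p6) for 8 of the 10 genes (not Atp2a2 and Itpr1), with 10 windows in all. They were searched on both strands. ACGTG or GCGTG, the core that hypoxia-inducible factors bind, was found in 8 of these 10 windows and in 43.8% of 32851 windows of the same length. The 8 windows belong to Atp2b1, Atp2c1, Itpr2, Itpr3, Stc2, Stim1 and Stim2, of which only Stc2 passed 2-fold in hypoxia. Both forms of the core contain CG, and the windows were not matched for base content. The part of base content in the difference between these shares was not tested. TGATGNAA, the core of sites for ATF4 with C/EBP, was in 0 of the 10 and 3.97% of all windows, TGACGTGG, which contains the first core, in 0 and 0.676%, TGANTCA, bound by AP-1, in 0 and 7.81%, and the ER stress response element (CCAAT and CCACG spaced by 9 bases) in 0 and 0.119%. The windows of Stc2, which rose in hypoxia and ER stress, and Stim2, which fell in ER stress, are shown up to the first annotated start, 5′ to 3′, with ACGTG or GCGTG on either strand in capitals. The Stc2 sequence is chr11:31370075-31370311 on the minus strand and the Stim2 sequence chr5:53998273-53998498 on the plus strand.
Stc2: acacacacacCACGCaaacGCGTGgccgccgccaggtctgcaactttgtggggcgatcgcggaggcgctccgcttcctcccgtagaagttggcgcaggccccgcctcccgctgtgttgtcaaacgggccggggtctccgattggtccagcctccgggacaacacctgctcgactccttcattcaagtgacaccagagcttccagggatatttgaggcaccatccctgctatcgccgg
Stim2: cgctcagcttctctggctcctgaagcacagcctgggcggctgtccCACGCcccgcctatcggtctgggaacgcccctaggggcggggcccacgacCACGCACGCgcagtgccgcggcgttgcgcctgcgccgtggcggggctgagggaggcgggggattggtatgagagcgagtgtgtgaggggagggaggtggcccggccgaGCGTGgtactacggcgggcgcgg
The Stc2 sequence of 237 bases holds the core once on each strand, near its distal end, and the Stim2 sequence of 226 bases holds it once on the forward and 3 times on the reverse strand. G and C make up 63.3% of the Stc2 sequence and 73.5% of the Stim2 sequence. In hypoxia Stc2 rose and Stim2, with a change of 0.23, did not pass 2-fold. The part of these letters in either change was not tested.

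Beside the 10 genes, 63 other genes of calcium handling were listed by family, of which 60 were matched and 44 passed the filter on low values. In ER stress 8 of the 44 rose and 3 fell, 18.2% and 6.82% of the list against 8.60% and 11.0% of all genes, and the median change was 0.25, where that of the 10 genes was -0.48 and that of all genes 0. The 10 genes thus had their middle value below that of the wider list in this library. The wider list holds Hspa5, which was used above to check the thapsigargin label and is counted again among the 8 rises. The list was drawn up with earlier results of these data known, so its share of rises is not independent of them. In hypoxia 1 of the 44 rose and 1 fell (3.57% and 2.64% of all genes). In osmotic stress 3 rose and 0 fell (3.08% and 8.76%), and in oxidative stress 1 rose and 0 fell (3.94% and 4.85%). In both depletions 0 rose and 0 fell (1.83% and 2.41% of all genes without glucose, 3.21% and 3.21% without glutamine). With a pseudocount of 5 TPM the number past 2-fold was 8 in ER stress and 0 in osmotic stress. The share of all genes with this pseudocount is not given here, so these counts cannot be set against it.

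Of the 8 rises in ER stress, 4 were among the 11 calcium-binding proteins of the ER lumen, of which 0 fell. In this library 8.60% of all genes rose and 11.0% fell. Hspa5 had a log2 change of 3.44, Hsp90b1, the gene of the chaperone GRP94, of 2.52, Nucb2 of 1.86 and Calr, the gene of the calcium buffer calreticulin, of 1.19. The reticulocalbin genes Rcn1, Rcn2 and Rcn3, whose products also bind calcium in the lumen, had changes of -0.36, -0.44 and -0.69. Of the 7 regulators of release and leak, 0 passed 2-fold, where 19.6% of all genes did, and their median was 0.29. With so few genes, a count of 0 cannot be told from that share. At the plasma membrane, the sodium-calcium exchanger gene Slc8a1 fell from 7.0 to 2.77 TPM (-1.09, or -0.63 with a pseudocount of 5 TPM), so that Atp2b4 and Slc8a1 were lower in ER stress while Atp2b1 was not.

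**Figure D5:**
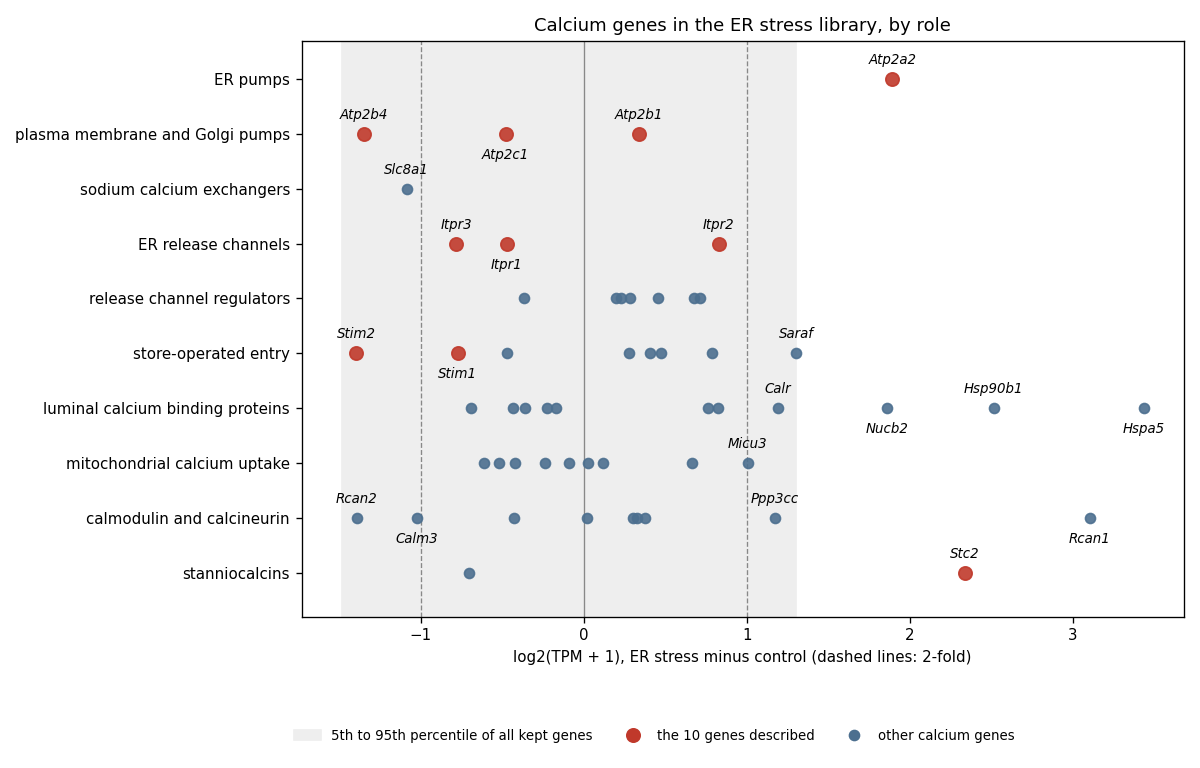
Change in log2(TPM + 1) in ER stress against the control (horizontal axis) for the 10 genes and the 44 other calcium genes that passed the filter, arranged by role (vertical axis), 1 point per gene from 1 library each. The shaded band is the 5th to 95th percentile of all kept genes, -1.48 to 1.30, and of the 10 genes Atp2a2 and Stc2 lie above it.

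Across all conditions, the thapsigargin library held the lowest level of 6 of the 10 genes, namely Atp2b4, Atp2c1, Itpr1, Itpr3, Stim1 and Stim2, where it was the lowest library for 23.9% of all genes, and the highest level of 1, Atp2a2, where it was the highest for 33.2%. Hypoxia held the highest level of Stc2 and the lowest of Atp2a2 and Atp2b1, and was the highest library for 15.7% and the lowest for 12.2% of all genes. The control was neither the highest nor the lowest library for any of the 10, where it was the highest for 11.7% and the lowest for 6.51% of all genes. In glucose depletion the changes ran from -0.31 (Stim1) to 0.65 (Atp2b4), and in oxidative stress from -0.34 (Itpr1) to 0.58 (Atp2b4). The median change of all genes in oxidative stress was -0.16, and relative to it the range was -0.18 to 0.74, with Itpr2 moving from -0.02 to 0.13. Without replicates, neither these changes nor the larger ones in other conditions can be set against the spread between libraries.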

How the data were processed

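RNA-seq of MEFs was analysed in 7 libraries, 1 per condition, prepared with a stranded mRNA kit. The authors quantified reads with kallisto 0.43.1 at default settings against all cDNA of GRCm38 (Ensembl release 90). The authors deposited TPM per gene, the sum of the values of its transcripts. Groups came from the treatment labels. Here log2(TPM + 1) was computed and the control subtracted. A mean of 2 TPM or more, met by 12909 genes, was required, and changes of more than 2-fold counted, as in the study's methods. TPM is a share of each library, so a gene's value also moves with what other genes take. Locations are from GENCODE M21 (GRCm38). The members and lists were chosen with earlier results of these data known. Named were the 10 members, their direct partners, in each condition the 3 listed calcium genes with the largest change past 2-fold, the 5 genes most like Atp2a2 and Stc2, and Hspa5 and Ddit3. Other named genes, such as Nucb2, Calr, Slc8a1 and the reticulocalbins, were chosen after their values were seen. Alternatives were other pseudocounts, filters, scalings, thresholds and a median reference. The counting step was tested on simulated data. Computation used pandas 2.3.3 and numpy 2.4.6 under Python 3.11.15, and figures matplotlib 3.10.9.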

Additional observations from a re-analysis of the deposited data

How the results depend on the processing

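No paired analysis was possible because each condition has 1 library, and for the same reason no library could be left out of a group. Of 414 member changes under the alternatives, 410 stayed on their side of 2-fold, 2 dropped below it (Atp2b4 in ER stress with a pseudocount of 5 TPM and in glutamine depletion against the median of the 7 libraries) and 2 went past it (Itpr2 in osmotic stress). None past 2-fold changed sign, while 10 smaller ones did. The counts of members past 2-fold in either direction moved as follows. At 1.5-fold they were 7 in ER stress, 3 in osmotic stress, 3 in glutamine depletion and 1 in glucose depletion, and at 3-fold 0 in glutamine depletion and 2 in ER stress. Shares of all genes past 1.5-fold or 3-fold are not given here, so the counts at these thresholds cannot be read as a result about the members. In osmotic stress the count was 1 with a pseudocount of 0.1 TPM or after centring on the median of all genes. Against the median of the 7 libraries it was 0 in glutamine depletion. Shares of all genes under these settings are not given here either.

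For the wider list, the counts at 1.5-fold were 20 (ER stress), 9 (osmotic stress), 7 (oxidative stress) and 3 (glutamine depletion), and at 3-fold 1 in hypoxia, 4 in ER stress and 0 in osmotic stress. These counts too have no share of all genes at the same threshold beside them. With a pseudocount of 5 TPM they were 1 in hypoxia and 0 in osmotic stress. The count in hypoxia was also 1 with a mean of at least 10 TPM, after centring, and against the median of the 7 libraries, where glucose depletion and osmotic stress each gave 1. For these settings too, shares of all genes are not given here. Removing the mitochondrially encoded genes or the expression filter moved none of these counts by more than 1.5 times, and shares within a family were unaffected by the former. A fold threshold on single libraries gives no rate of error, and TPM gives no counting interval.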

Other observations

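Genes that act on calcium after its release gave values not described above. Rcan1, whose product inhibits the calcium-activated phosphatase calcineurin and whose transcription calcineurin is known to drive, rose in ER stress from 39.2 to 345.1 TPM (log2 change 3.11), in oxidative stress to 191.2 TPM (2.26) and in osmotic stress to 82.7 TPM (1.06). The osmotic change was 0.988 with a pseudocount of 5 TPM and 0.29 against the median of the 7 libraries, both within 2-fold. Rcan1 was at 30.5 TPM in glucose depletion, 67.3 in glutamine depletion and 39.5 TPM in hypoxia. Its paralog Rcan2 fell in ER stress, from 74.0 to 27.6 TPM (-1.39). The calcineurin subunit gene Ppp3cc rose there from 9.09 to 21.8 TPM (1.18, or 0.93 with a pseudocount of 5 TPM), whereas Ppp3ca and Ppp3cb were at 0.38 and 0.33 on the log2 scale.

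The 9 genes of mitochondrial calcium transport had a median absolute log2 change of 0.42 in ER stress (0.45 over all genes), 0.33 in hypoxia (0.23) and 0.21 in osmotic stress (0.30). Of these 9 genes, 1 rose in ER stress and 1 in osmotic stress, where 8.60% and 3.08% of all genes did, in each case Micu3, a regulator of the mitochondrial calcium uniporter, which went from 7.20 TPM to 15.5 TPM (log2 change 1.01) and 16.7 TPM (1.11). With a pseudocount of 5 TPM these changes were 0.75 and 0.83, within 2-fold, and against the median of the 7 libraries 0.38 and 0.48. Letm1, a protein of the inner mitochondrial membrane, fell in hypoxia from 43.1 to 20.4 TPM (-1.04), or -0.996 relative to the median change of all genes there and -0.54 against the median of the 7 libraries, and 2.64% of all genes fell in hypoxia. No other gene of this group fell in any condition, where between 2.41% (glucose depletion) and 11.0% (ER stress) of all genes did. In a group of 9 genes, this is too close to those shares to be read as a result about the group. The uniporter gene Mcu was between 19.9 TPM, in oxidative stress, and 40.6 TPM, in ER stress. These genes were named after their values were seen, apart from Rcan1, Micu3 and Letm1. Each value is that of 1 library.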
